A study of Mus musculus with 2 samples.

Results

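Heterotrimeric G protein subunits, regulators of G protein signalling (RGS), adenylyl cyclases and phosphodiesterases were compared between hippocampal RNA of mice given cerium chloride and of mice given water. The set holds every gene whose single symbol in the platform annotation begins with Gna, Gnb or Gng and one of the usual subunit letters or a digit, or with Rgs, Adcy or Pde and a digit, without the Gnat genes, Adcyap1 and Adcyap1r1. This gave 88 of 19057 named genes on 191 probes: 14 begin with Gna, 6 with Gnb, 12 with Gng, 21 with Rgs, 10 with Adcy and 25 with Pde. A few belong by symbol only, namely the antisense RNA Gnasas1, Gnb1l, Pde4dip, Pde12 and the anchoring proteins Rgs7bp and Rgs9bp.

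The CeCl3 array held hippocampal RNA of male ICR mice, an outbred stock, that received cerium chloride, a lanthanide salt, by stomach tube daily for 90 days. The control array held RNA of ICR mice, also labelled male, given purified water for as long. Doses of 0.5, 1 and 2 mg per kg are named together for the treated sample, so the dose behind the array is unknown, and the labelled age of 4 weeks cannot be the age at sampling. How many mice either array represents is not stated.

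A G protein carries the signal of a membrane receptor into the cell. On activation its alpha subunit binds GTP and parts from the beta-gamma pair, and RGS proteins end the signal by speeding GTP hydrolysis. Alpha subunits of the Gs class raise cyclic AMP through adenylyl cyclases, those of the Gi class lower it, and those of the Gq class activate phospholipase C beta. Phosphodiesterases break cyclic AMP and cyclic GMP down, and in the hippocampus cyclic AMP made by calcium-stimulated cyclases serves long-term potentiation and memory.

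With 1 array per group there was no replicate check and no p-value. The 95% intervals given with differences cover bead spread inside each array and nothing else. Each array came from its own BeadChip, so BeadChip and treatment cannot be told apart, and the number of arrays limits the precision. At a detection p-value under 0.01, the CeCl3 array detected 17433 of 45281 probes and the control array 16434. All 4 Xist probes were undetected on the CeCl3 array (log2 signal 4.52 to 4.81) and detected on the control array (7.25 to 9.72), although both samples are labelled male, and of 8 probes of Y-linked genes the CeCl3 array detected 1 and the control array 0. The part of this in the differences below was not tested. Of 7 hippocampal neuron markers with a probe, 6 were detected on both arrays, among them Prox1 and Wfs1, while Neurod6 was detected on neither.

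Of the 88 members, 63 were detected on at least 1 array and 58 on both. Their differences were small. Over genes detected on both arrays, the median log2 difference, CeCl3 minus control, was -0.04 for members and -0.05 for all 9473 named genes, and the median absolute difference was 0.14 for members and 0.17 for all. In the series matrix as deposited these medians were 0.12 for members and 0.17 for all genes, so the sign of a small difference depends on the processing. Differences and intervals below are set against 0, with the value over all genes beside many of the counts.

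On the probe of highest signal, no member was shown to differ by 2-fold. The measured signals differed by 2-fold in 3 members on the higher side, Pde7b, Gna15 and Pde5a, where the background counted alike was 2.77% of detected genes, and in Pde6a on the lower side (1.95%). Each of these 4 was detected on 1 array alone, which largely fixed its direction, and against the detection limit of the other array their bounds were 1.15-fold to 1.33-fold. Among the 58 detected on both arrays, 0 were 2-fold higher (background 0.486%) and 0 were 2-fold lower (0.496%), with differences between -0.72 and 0.63. The bead interval lay above 0 in 2 of the 58, or 3.45%, where the background was 8.53%. It lay below 0 in 9 of the 58, or 15.5%, close to the background of 13.9%. The difference was below 0 in 34 of 58 members, or 58.6%, close to the 57.7% of all genes.

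**Figure D1:**
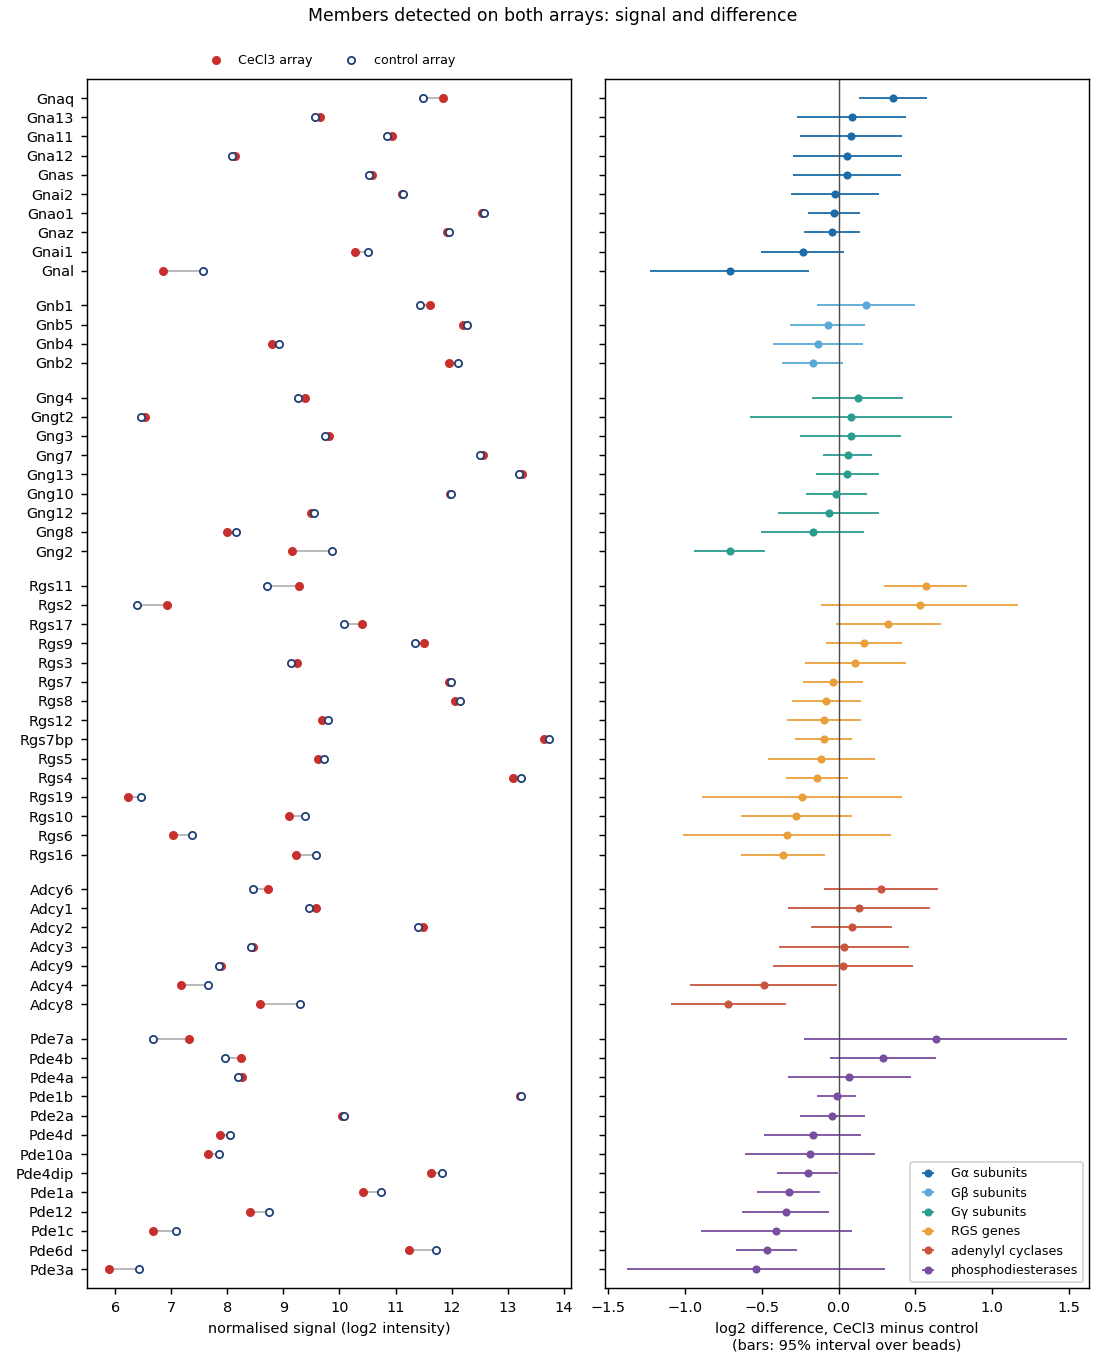
Normalised log2 signal of each member detected on both arrays (left; filled, CeCl3; open, control) and its log2 difference, CeCl3 minus control, with the 95% interval over beads (right), by family. Most intervals cross 0; Rgs11 and Gnaq lie above it, and Adcy8, Gng2 and Gnal have the lowest values, from -0.72 to -0.71.

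**Figure D2:**
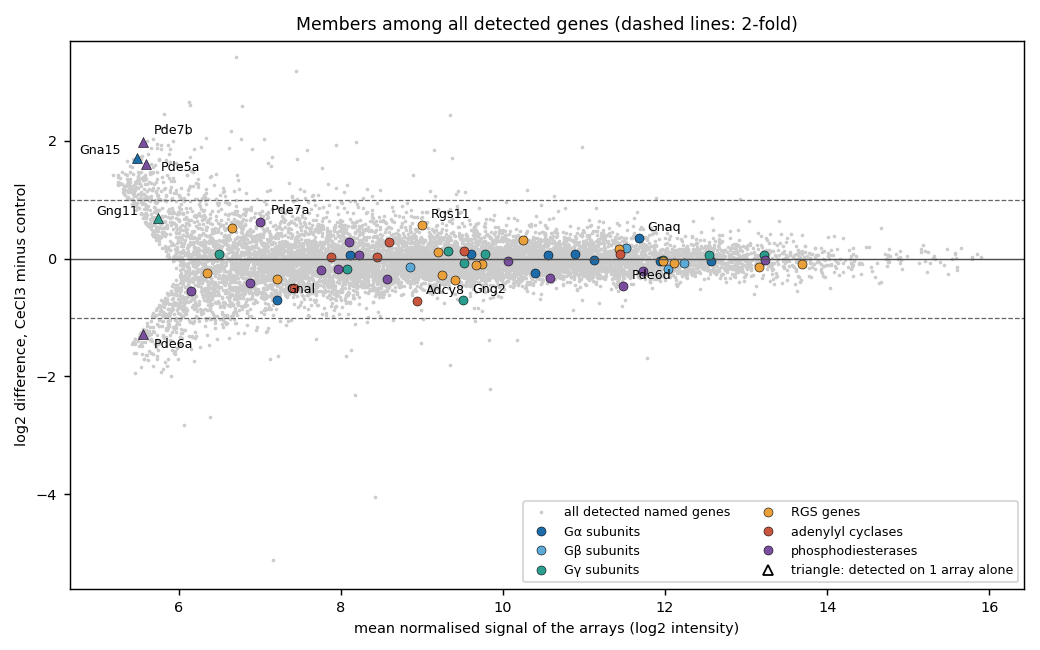
Log2 difference against the mean log2 signal of both arrays for all detected named genes (grey) and for members (coloured by family; triangles, detected on 1 array alone). The 4 members outside the dashed 2-fold lines, Pde7b, Gna15, Pde5a and Pde6a, are all triangles at low signal, whose lower bounds are under 2-fold.

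The members whose interval lay off 0 were Rgs11 and Gnaq on the higher side, and Adcy8, Gng2, Gnal, Adcy4, Pde6d, Rgs16, Pde12, Pde1a and Pde4dip on the lower side. Promoter windows of RefSeq genes on the mouse build GRCm38.p6, from 250 bases before to 50 after the start site, were matched by symbol for 65 of the 88 members and for 8 of these 11. The windows of Gnaq (chr19:16132434-16132733, plus strand), of Gng2 (chr14:19976644-19976943, minus strand) and of Rgs16 (chr1:153740103-153740402, plus strand) are shown because these members are among those off 0. Capitals mark the SP1 box GGGCGG and the AP-1 site TGANTCA, on either strand.
Gnaq: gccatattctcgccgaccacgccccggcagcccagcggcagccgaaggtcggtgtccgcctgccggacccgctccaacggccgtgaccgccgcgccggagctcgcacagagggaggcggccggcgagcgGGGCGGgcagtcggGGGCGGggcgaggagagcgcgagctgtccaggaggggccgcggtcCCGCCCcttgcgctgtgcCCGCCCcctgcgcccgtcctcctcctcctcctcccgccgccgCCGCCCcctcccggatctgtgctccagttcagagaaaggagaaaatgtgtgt
Gng2: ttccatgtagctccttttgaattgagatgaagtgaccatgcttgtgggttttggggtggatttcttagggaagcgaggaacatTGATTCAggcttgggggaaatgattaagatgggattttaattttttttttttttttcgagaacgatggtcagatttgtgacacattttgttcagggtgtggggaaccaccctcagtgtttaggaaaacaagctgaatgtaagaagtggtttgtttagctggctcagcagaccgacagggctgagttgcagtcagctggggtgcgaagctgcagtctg
Rgs16: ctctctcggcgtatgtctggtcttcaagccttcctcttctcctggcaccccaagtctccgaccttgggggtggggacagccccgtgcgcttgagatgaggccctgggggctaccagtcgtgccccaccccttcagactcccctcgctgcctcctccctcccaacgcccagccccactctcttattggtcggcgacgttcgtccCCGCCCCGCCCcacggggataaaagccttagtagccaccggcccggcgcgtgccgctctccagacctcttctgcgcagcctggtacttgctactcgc
The Gnaq window held 5 SP1 boxes and the Rgs16 window 2, which overlap, while the Gng2 window held 1 AP-1 site. Over all members with an entry, 46 of 103 windows (44.7%) held an SP1 box, against 35.7% of all 32851 windows. An AP-1 site was found in 8.74% of member windows and 7.81% of all. The full cyclic AMP response element TGACGTCA was found in 0 of the 103 member windows and in 1.79% of all windows, and its half-site TGACG in 21.4% and 20.8%. No match says only that these letters are absent from this window.

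Among alpha subunits, Gnaq, which couples receptors to phospholipase C beta, stood highest of those detected on both arrays. Its probe of highest signal had log2 signals of 11.85 (CeCl3) and 11.50 (control), a difference of 0.35 (bead interval 0.13 to 0.58). That probe was designed on a cDNA clone. A second Gnaq probe, designed on a RefSeq transcript, had intensities of 676.4 (CeCl3) and 38.5 (control) and was not detected on the control array. Its signal was at least 9.79-fold higher, measured against the lowest signal detected on the control array. The 3 other Gnaq probes were detected on neither array, so the size of the Gnaq difference depends on the probe by a wide margin. Gna11, its closest relative, lay at 0.08 (-0.25 to 0.41) and 0.28 (-0.03 to 0.58) on its probes, both with 0 in the interval. Gna15, a Gq-class subunit of blood cells, was detected on the CeCl3 array only, with log2 signals of 6.34 (CeCl3) and 4.63 (control), and was at least 1.15-fold higher. Gna14 was detected on neither array.

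Of the Gs class, Gnal, the alpha subunit of olfactory and striatal neurons, was lower on the CeCl3 array, with log2 signals of 6.85 (CeCl3) and 7.56 (control) and a difference of -0.71 (-1.23 to -0.19). This rested on 1 detected probe of 5. Gnas, the general stimulatory alpha subunit, lay at 0.05 (-0.30 to 0.41), with log2 signals of 10.59 (CeCl3) and 10.53 (control). Its imprinted locus makes several transcripts, and 6 of its 10 probes were detected, with differences in both directions. A RefSeq probe of lower signal lay at 0.70 (0.25 to 1.15) and a probe on a non-coding RefSeq transcript of the locus at -0.57 (-0.97 to -0.16). A probe on a cDNA clone was detected on the CeCl3 array only, with log2 signals of 5.98 (CeCl3) and 4.89 (control) and no bound above 1.

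The inhibitory alpha subunits lay near 0. Gnao1, the main alpha subunit of brain, had log2 signals of 12.55 (CeCl3) and 12.58 (control), a difference of -0.03 (-0.20 to 0.14), while its second detected probe lay at -0.40 (-0.68 to -0.12). Gnai2 lay at -0.02 and -0.03 on its probes, Gnaz at -0.04 (-0.22 to 0.14) and Gnai1 at -0.24 (-0.51 to 0.04). All 4 intervals of the probes with the highest signal held 0, and Gnai3 was detected on neither array. Gna12 and Gna13, the alpha subunits of the G12/13 class, lay at 0.06 (-0.30 to 0.41) and 0.08 (-0.27 to 0.44), and a second Gna13 probe at 0.35 (-0.33 to 1.03).

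Beta subunits showed no interval off 0 on the probe of highest signal. Gnb1 had log2 signals of 11.61 (CeCl3) and 11.43 (control), Gnb2 of 11.95 (CeCl3) and 12.12 (control), and Gnb4 of 8.79 (CeCl3) and 8.92 (control). Their differences were 0.18 (-0.14 to 0.50), -0.17 (-0.37 to 0.03) and -0.14 (-0.43 to 0.16), so none was resolved from 0. Gnb5, the beta subunit that pairs with RGS proteins of the R7 group, lay at -0.07 (-0.32 to 0.17) on 1 probe and at 0.45 (0.20 to 0.70) on another, designed on a different RefSeq transcript. Gnb3 and Gnb1l were detected on neither array.

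Among gamma subunits detected on both arrays, Gng2 was the one whose interval lay off 0. It had log2 signals of 9.16 (CeCl3) and 9.86 (control), a difference of -0.71 (-0.94 to -0.48). In linear terms the CeCl3 signal was 0.611 of the control signal. The second Gng2 probe was lower too, at -0.41 (-0.92 to 0.09), with 0 inside its interval. Gng3 and Gng4, which are largely neuronal, lay at 0.08 (-0.25 to 0.41) and 0.12 (-0.17 to 0.42), Gng13 at 0.06 (-0.15 to 0.26) and Gng10 at -0.01 (-0.22 to 0.19). Gng12 and Gng8 lay at -0.07 (-0.40 to 0.27) and -0.17 (-0.51 to 0.17), and Gng5 and Gngt1 were detected on neither array. Over the 9 gamma subunits detected on both arrays the median was 0.06.

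Counting the anchoring protein Rgs7bp, RGS genes had the largest number of members detected on both arrays, 15. Their median was -0.10, with 10 of 15 below 0 (66.7%, where all genes gave 57.7%), and it was 0.08 in the series matrix as deposited, where all genes had 0.18. Rgs11, of the R7 group, which acts on Go with Gnb5, had log2 signals of 9.28 (CeCl3) and 8.71 (control), a difference of 0.57 (0.30 to 0.84), or 1.48-fold. The other R7 members had intervals that held 0 on the probe of highest signal. Rgs9 lay at 0.16 (-0.08 to 0.41), and at 0.67 (0.15 to 1.18) on a probe from a cDNA clone. Rgs7 lay at -0.04 (-0.23 to 0.16) and Rgs6 at -0.34 (-1.02 to 0.34), while Rgs7bp, their membrane anchor, lay at -0.10 (-0.28 to 0.09) and -0.25 (-0.72 to 0.21).

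In the R4 group of small RGS proteins, Rgs16 was lower, with log2 signals of 9.23 (CeCl3) and 9.59 (control) and a difference of -0.36 (-0.64 to -0.09). Rgs2, an activity-induced inhibitor of Gq signalling, had log2 signals of 6.92 (CeCl3) and 6.40 (control), a difference of 0.53 whose interval (-0.12 to 1.17) held 0. Rgs4, abundant in forebrain neurons, lay at -0.14 (-0.34 to 0.06) and Rgs8 at -0.08 (-0.31 to 0.14). Rgs3 lay at 0.11 (-0.22 to 0.44), while another Rgs3 probe was detected on the CeCl3 array only and was at least 1.02-fold higher. The R4 values thus went both ways, with 1 interval of 6 off 0. Rgs17, of the RZ group, lay at 0.32 (-0.02 to 0.67) and 0.21 (-0.08 to 0.50) on its probes, both above 0 with 0 inside the interval. Rgs10, which is strong in microglia, lay at -0.28 (-0.64 to 0.09), Rgs12 at -0.10 (-0.34 to 0.15) and Rgs19 at -0.24 (-0.89 to 0.41). Rgs14, a marker of hippocampal area CA2, was detected on neither array, nor were Rgs1, Rgs13, Rgs18, Rgs20 and Rgs9bp.

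Of the adenylyl cyclases, Adcy8, which calcium and calmodulin stimulate, had the lowest difference of all members detected on both arrays. It had log2 signals of 8.57 (CeCl3) and 9.29 (control), a difference of -0.72 (-1.09 to -0.35), and the CeCl3 signal was 0.608 of the control signal. Adcy8 had 1 probe. Adcy1, the other calmodulin-stimulated cyclase of hippocampal neurons, had log2 signals of 9.58 (CeCl3) and 9.45 (control), a difference of 0.13 (-0.33 to 0.59). A second Adcy1 probe, of unstated source, was detected on the control array only and was at least 2.09-fold lower, so its probes did not share a direction. Adcy4, which beta-gamma subunits stimulate, was lower on both detected probes, at -0.49 (-0.97 to -0.01) and -0.86 (-1.64 to -0.09). Its log2 signals were 7.17 (CeCl3) and 7.66 (control) on the first and 5.90 (CeCl3) and 6.76 (control) on the second.

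The remaining cyclases had 0 inside their intervals. Adcy2 lay at 0.09 (-0.18 to 0.35), Adcy3 at 0.04 (-0.39 to 0.46), Adcy9 at 0.03 (-0.43 to 0.48) and Adcy6, which calcium inhibits, at 0.28 (-0.09 to 0.65). Adcy5, Adcy7 and Adcy10 were detected on neither array. The cyclase median was 0.04, with 5 of 7 above 0, all 5 with 0 inside the interval. Adcy8 and Adcy4 were the 2 below 0 (28.6%, where all genes gave 57.7%).

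Of the genes of cyclic nucleotide phosphodiesterases and their subunits, 11 were detected on both arrays. Their median was -0.17, with 8 of 11 below 0 (72.7%, where all genes gave 57.7%), 6 of 11 below the median of all genes, and 2 intervals below 0, those of Pde1a and Pde6d. In the series matrix as deposited their median was 0.14, where all genes had 0.17. Of the enzymes that hydrolyse both cyclic AMP and cyclic GMP, 6 of 6 detected lay below 0, with a median of -0.26, but Pde1b and Pde2a were not below the median of all genes, and 1 interval alone lay off 0. The count below 0 was 5 of 6 after centring on all genes or with the mean of all detected probes, and 3 of 6 in the series matrix as deposited. Pde1a, which calcium and calmodulin activate, had log2 signals of 10.41 (CeCl3) and 10.74 (control), a difference of -0.33 (-0.53 to -0.12). Its other detected probes lay at 0.21 (-0.16 to 0.59) and -0.30 (-0.68 to 0.08). Pde1b lay at -0.01 (-0.14 to 0.12) and, on a second probe, at 0.19 (0.02 to 0.36), and Pde1c at -0.41 (-0.90 to 0.09). Pde2a, which cyclic GMP stimulates, lay at -0.04 (-0.25 to 0.17). Pde3a, which cyclic GMP inhibits, was dim, with log2 signals of 5.88 (CeCl3) and 6.42 (control) and an interval of -1.38 to 0.30. Its second probe was detected on the control array only, at least 1.22-fold lower.

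Of the enzymes selective for cyclic AMP, 3 of 4 detected on both arrays lay above 0, all 4 with 0 inside the interval. Pde7b was detected on the CeCl3 array only, with log2 signals of 6.55 (CeCl3) and 4.56 (control), and was at least 1.33-fold higher. Pde7a had log2 signals of 7.31 (CeCl3) and 6.68 (control), a difference of 0.63 with a wide interval (-0.23 to 1.49). Pde4b, a target of the inhibitor rolipram, lay at 0.29 (-0.06 to 0.63) on a probe from a cDNA clone, Pde4a at 0.07 (-0.33 to 0.47) and Pde4d at -0.17 (-0.49 to 0.15). Pde4c and Pde8b were detected on neither array.

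Of the genes for cyclic GMP phosphodiesterases, Pde5a was detected on the CeCl3 array only, with log2 signals of 6.40 (CeCl3) and 4.79 (control), and was at least 1.20-fold higher on a probe from a cDNA clone. Pde6a, of rod photoreceptors, was detected on the control array only, with log2 signals of 4.92 (CeCl3) and 6.19 (control), and was at least 1.25-fold lower. Both signals lay close to the detection limit, and the photoreceptor genes Pde6b, Pde6c, Pde6g and Pde6h were detected on neither array, nor was Pde9a. Pde6d, named for its place in the rod enzyme, encodes a carrier of prenylated proteins. It had log2 signals of 11.25 (CeCl3) and 11.71 (control), a difference of -0.47 (-0.67 to -0.27). Its other detected probes were lower as well, at -0.20 (-0.45 to 0.06) and -0.13 (-0.43 to 0.17).

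The remaining symbols are no cyclic nucleotide phosphodiesterases. Pde12, a mitochondrial enzyme that removes adenosines from RNA tails, had log2 signals of 8.40 (CeCl3) and 8.74 (control), a difference of -0.35 (-0.63 to -0.06). Pde4dip, the centrosomal scaffold myomegalin, had 4 detected probes that went both ways, at -0.20 (-0.40 to -0.0014), 0.24 (-0.11 to 0.60) and 0.75 (0.44 to 1.05), and at least 1.65-fold lower on a probe detected on the control array only.

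**Figure D3:**
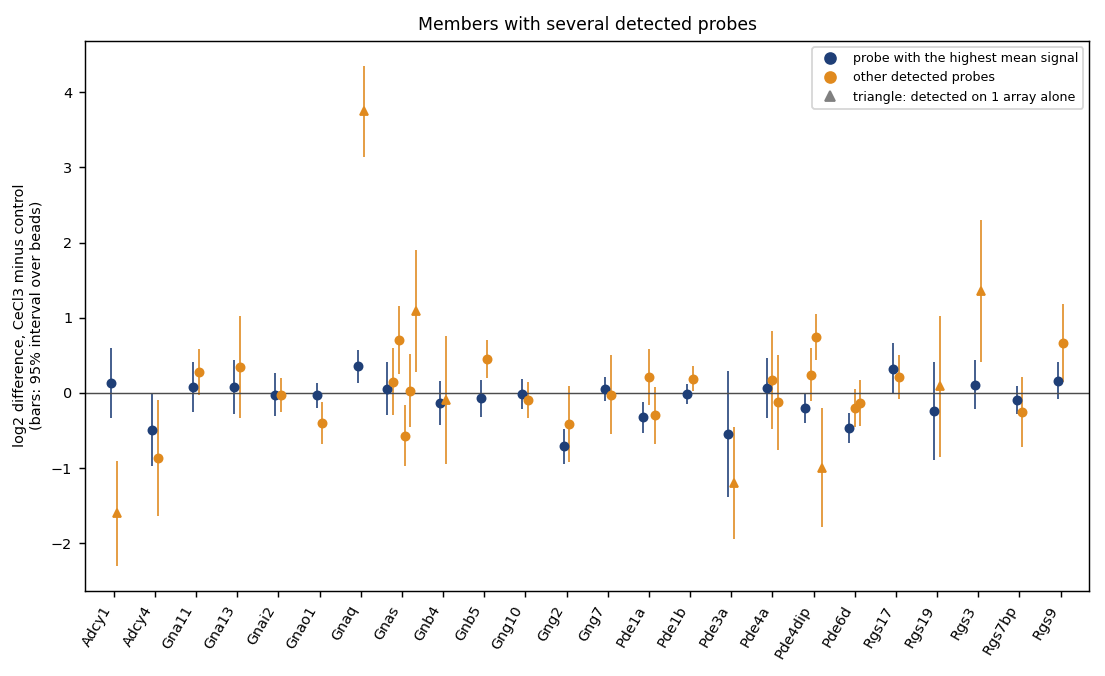
Log2 difference, CeCl3 minus control, of each detected probe of the 24 members with several detected probes, with 95% intervals over beads (blue, probe of highest mean signal; orange, others; triangles, detected on 1 array alone). The second Gnaq probe lies far above all others, while probes of Adcy1, Gnas, Gnb5 and Pde4dip fall on both sides of 0.

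Probes of the same gene give the one internal check here. Of 24 members with several detected probes, the 2 with the highest signal differed in the same direction in 17, or 70.8% (Wilson 95% interval 50.8 to 85.1, for counting error only). The share over all 3652 such genes was 55.3%, inside that interval. All detected probes shared a direction in 15 of the 24 members. The median gap between both probes was 0.28 for members and 0.27 for all genes, beside a median absolute difference of 0.14 for members detected on both arrays. The other 39 detected members, among them Adcy8, Gnal, Rgs11, Rgs16 and Pde12, rested on 1 detected probe.

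Some members mark tissue or cells other than hippocampal neurons. Striatal neurons are rich in Gnal, Gng7, Adcy5, Pde10a, Pde1b, Pde7b and Rgs9. Of the 5 detected on both arrays, 2 lay above 0 and 3 below, with a median of -0.01. Gng7 had log2 signals of 12.57 (CeCl3) and 12.51 (control), and Pde10a of 7.66 (CeCl3) and 7.84 (control), with differences of 0.06 (-0.10 to 0.22) and -0.19 (-0.61 to 0.24). Beside them, 7 of 7 striatal markers with a probe were detected on both arrays. Their median was -0.13, with 5 below 0, and their summed intensities were 18634 (CeCl3) and 18425 (control). Drd2 lay at -0.67 (-1.09 to -0.26), Rasd2 at 0.29 (0.02 to 0.57) and Drd1 at 0.17 (-0.17 to 0.51). Of the 7 intervals, 1 thus lay below 0 and 1 above. The part of tissue makeup in these differences was not tested. In whole tissue, fewer cells of a type and less RNA per cell cannot be told apart.

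Members known from vessels or blood cells were dim on the whole. Rgs5, of pericytes, had log2 signals of 9.61 (CeCl3) and 9.72 (control), a difference of -0.11 (-0.46 to 0.23), and Gngt2 lay at 0.08 (-0.57 to 0.74). Gng11, of endothelium, was detected on the CeCl3 array only, with log2 signals of 6.08 (CeCl3) and 5.39 (control) and no bound above 1. With Gna15 and Pde5a, 3 of the 5 detected were thus seen on the CeCl3 array alone, each at a signal near the detection limit. Over all detected named genes, 615 of 10416 were seen on the CeCl3 array alone and 328 on the control array alone. Endothelial markers had a median of -0.18 over 6 detected of 7 (4 below 0), with summed intensities of 5354 (CeCl3) and 5901 (control). Their 1 interval off 0 was that of Tek at -0.56 (-1.03 to -0.10). Pericyte and smooth muscle markers had a median of -0.32 over the 4 of 8 detected on both arrays (3 below 0). Of these 4, Acta2 at -0.53 (-0.72 to -0.33) had the 1 interval off 0. The sums over 5 detected were 3274 (CeCl3) and 4131 (control), and Tagln, Anpep and Kcnj8 were detected on neither array. Of 7 blood cell markers 4 were detected, with summed intensities of 47702 (CeCl3) and 43523 (control), of which the haemoglobin gene Hba-a1 made up 45613 (CeCl3) and 42967 (control). The normalised difference of Hba-a1 was -0.11 (-0.28 to 0.06). The red cell enzyme Alas2 lay at 0.54 (0.14 to 0.93) and the neutrophil gene S100a8 at 2.44 (2.12 to 2.77), so 2 of the 3 detected on both arrays lay above 0. S100a9 was detected on the CeCl3 array only and was at least 2.49-fold higher, while Ptprc, Pf4 and Ppbp were detected on neither array.

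Markers of other cells and neighbouring tissue went as follows. Oligodendrocyte markers had 6 of 7 below 0, with a median of -0.25 and summed intensities of 64118 (CeCl3) and 68483 (control). Their intervals lay below 0 in 4, namely Mal at -0.70 (-0.92 to -0.48), Ugt8a at -0.49 (-0.72 to -0.25), Mbp at -0.26 (-0.43 to -0.10) and Mog at -0.25 (-0.40 to -0.10). Markers of thalamus and habenula had 5 of 6 below 0, with a median of -0.12 and no interval off 0. Over those detected on both arrays, the median was -0.01 for 5 astrocyte markers, -0.02 for 7 microglial markers and -0.02 for 7 choroid plexus markers, each list with 1 interval below 0. The part of blood, vessels, glia or tissue makeup in the members' values was not tested.

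**Figure D4:**
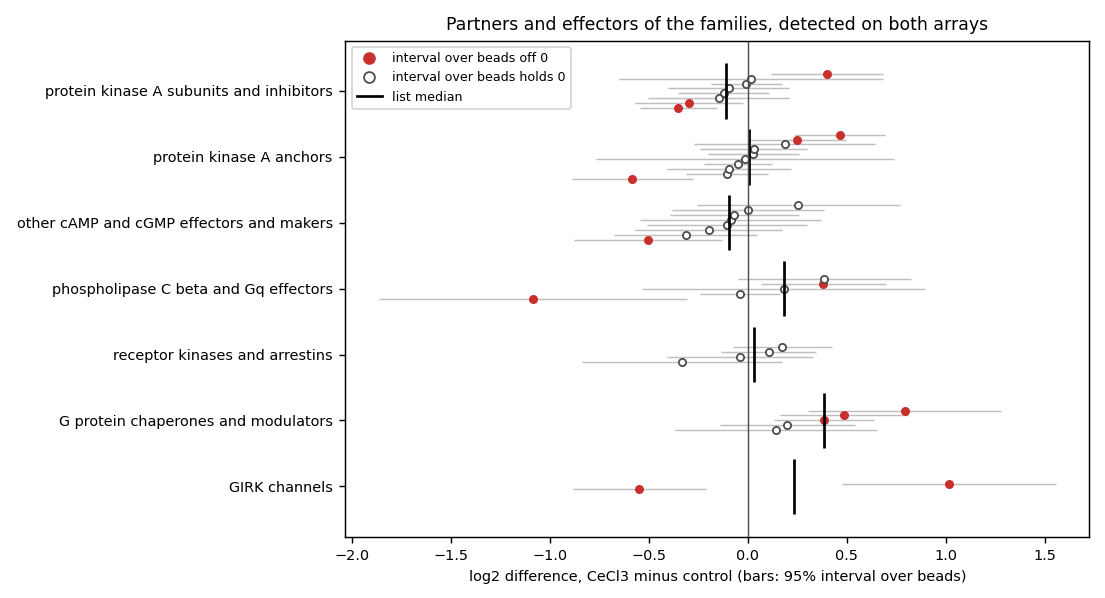
Log2 difference, CeCl3 minus control, of partners and effectors of the families, by list, with 95% intervals over beads (red, interval off 0; open, interval holds 0; black bar, list median). Genes detected on both arrays are drawn. The 5 genes drawn of the list of chaperones and modulators lie right of 0, with a median of 0.39. Rgs7bp, also on that list but a member, is not drawn and lay at -0.10.

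Partners and effectors outside the families were described from fixed lists of 56 genes with a probe, of which 44 were detected. The 42 detected on both arrays had a median of -0.01, with 20 above and 22 below 0, and 8 intervals lay above 0 (background 8.53%) and 6 below (13.9%). Of the G protein chaperones and modulators outside the families, 5 were detected on both arrays and lay above 0, with a median of 0.39. Of these 5, 3 had intervals above 0, and 4 of 5 lay above 0 with the mean of all detected probes. The list as fixed also held the members Rgs7bp and Rgs9bp, which were left out of these counts. Rgs7bp, detected on both arrays, lay below 0, at -0.10 (-0.28 to 0.09) and -0.25 (-0.72 to 0.21) on its probes. Gpsm1, which binds Gi alpha subunits in their GDP form, had log2 signals of 11.40 (CeCl3) and 11.01 (control), a difference of 0.39 (0.13 to 0.64), and lay at 0.51 (0.08 to 0.94) on its second probe. Pcp2, of the same kind, lay at 0.49 (0.16 to 0.81). Gpsm2 was detected on the CeCl3 array only, with log2 signals of 6.73 (CeCl3) and 5.90 (control), and was at least 1.51-fold higher. Ccdc88a lay at 0.79 (0.31 to 1.28), although its second probe was detected on the control array only and was at least 1.87-fold lower. The chaperones Ric8b and Pdcl lay at 0.14 (-0.37 to 0.65) and 0.20 (-0.14 to 0.54).

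Downstream of cyclic AMP, protein kinase A genes had a median of -0.11, with 2 intervals below 0 and 1 above among 8 detected. Pkia, an inhibitor of the kinase, had log2 signals of 13.15 (CeCl3) and 13.50 (control), a difference of -0.35 (-0.55 to -0.16), and the regulatory subunit Prkar2b lay at -0.30 (-0.57 to -0.02). The regulatory subunit Prkar1a lay at 0.40 (0.12 to 0.68), and at -0.14 (-0.48 to 0.20) on its second probe. Anchors of the kinase had a median of 0.01, with Akap11 at 0.46 (0.24 to 0.69), Akap7 at 0.25 (0.0019 to 0.50), Akap2 at -0.11 (-0.32 to 0.10) and Akap6 at -0.58 (-0.89 to -0.28). The second Akap11 probe lay at 0.08 (-0.35 to 0.50). Of the other makers and effectors of cyclic nucleotides, Popdc3, which binds cyclic AMP, lay at -0.51 (-0.88 to -0.13), the cyclic GMP kinase Prkg1 at -0.31 (-0.68 to 0.05) and the guanylyl cyclase subunit Gucy1b1 at 0.26 (-0.26 to 0.77). The receptor Npr1 was detected on the CeCl3 array only, with log2 signals of 5.88 (CeCl3) and 5.46 (control) and no bound above 1.

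On the Gq branch, Plcb4, a phospholipase C beta, had log2 signals of 6.05 (CeCl3) and 7.13 (control), a difference of -1.09 (-1.86 to -0.31). Of the 42 pathway genes detected on both arrays, Plcb4 was the 1 at least 2-fold lower on the probe of highest signal (background 0.496%). It rested on 1 detected probe, whose CeCl3 signal lay near the detection limit. Plcb3 lay at 0.39 (-0.05 to 0.82) and the calcium release channel Itpr2 at 0.38 (0.06 to 0.70), while Plcb1 and Plcb2 were detected on neither array. The potassium channel subunits opened by beta-gamma went opposite ways, with Kcnj9 at 1.02 (0.48 to 1.56) and Kcnj3 at -0.55 (-0.89 to -0.21). Kcnj9 had log2 signals of 7.96 (CeCl3) and 6.94 (control), and Kcnj3 of 7.48 (CeCl3) and 8.03 (control), each on 1 detected probe. Kcnj9 was the 1 pathway gene detected on both arrays that was at least 2-fold higher on the probe of highest signal (background 0.486%). A dimmer probe of the guanylyl cyclase subunit Gucy1a1, detected on both arrays, was also more than 2-fold higher, at 1.06 (0.77 to 1.34). The Gucy1a1 probe of highest signal lay at -0.07 (-0.39 to 0.26), and its other probes at -0.16 (-0.51 to 0.19) and -0.13 (-0.42 to 0.16). Receptor kinases and arrestins had 0 inside all 4 intervals of the probes of highest signal, with Arrb2 at 0.17 (-0.08 to 0.43), Arrb1 at 0.10 (-0.13 to 0.34), Grk6 at -0.04 (-0.41 to 0.33) and Grk5 at -0.33 (-0.84 to 0.17). A second Arrb1 probe lay at -0.49 (-0.80 to -0.17).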

How the data were processed

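Hippocampal RNA was labelled with biotin and hybridised to Illumina bead arrays, 1 CeCl3 sample and 1 control, grouped by the labels. The submitters' processing notes name BeadStudio without a version. Per the file headers, the deposited table gives each probe's mean signal intensity, its standard error over beads, its bead number (20 to 70 for member probes) and an unadjusted detection p-value. The deposited intensity is background-subtracted (27.1% of values are below 0 on each array) and has nearly equal quantiles on the arrays (within 0.509% from percentile 50 to 99), so it appears normalized. The deposited series matrix holds intensity values that appear not to be normalized between arrays. The sources used here do not say how either table was made.

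Signals were corrected by normexp from the detection p-values with an offset of 16 (limma 3.58.1, R 4.3.3), quantile normalized and converted to log2. These normalization steps were tested on simulated data with known changes in brighter probes only, so that test did not cover dim probes. A gene was its detected probe (p-value under 0.01 on at least 1 array) with the highest mean signal. Intervals are 1.96 bead standard errors on the log2 scale. A gene detected on 1 array alone has a lower bound, set against the dimmest detected probe of the other array (log2 signal 5.87 for CeCl3, 6.14 for control), and no fold where it is under 1. That bound leaves out bead error. The fold called was 2. Of the probes, 34885 had 1 gene symbol, 18 several and 10378 none here. Values were given for the 10 highest and 10 lowest members, all detected on 1 array alone, fixed sets and, of each pathway list, the 2 highest and 2 lowest genes, of which 1 is not reported here. A few other probes and pathway genes were picked once their values had been seen. The members and lists were chosen with earlier results of these data known. Results under 10 alternative settings stand in the closing section.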

Additional observations from a re-analysis of the deposited data

How the results depend on the processing

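No paired analysis was possible because there was 1 array per group. Of the 58 members detected on both arrays, 18 had both signs across the 10 alternatives and the values reported, and 8 had both without the series matrix as deposited, among them Adcy1 (-0.74 to 0.39) and Gnb5 (-0.08 to 0.19). The 11 members whose bead interval lay off 0 kept their sign in 110 of 110 values, but they were picked for lying away from 0. Their size moved most for Gnaq, between 0.35 and 3.74. Members with an interval below 0 numbered 7, against 9, without normalization between arrays and after centring on all genes, where the intervals of Adcy4 and Pde4dip held 0. With the mean of all detected probes those of Pde1a and Pde4dip held 0, while Adcy1, Gnao1 and Pde3a lay below it. By measured signals, the count of members 2-fold higher, 3, was 0 for genes detected on both arrays, 1 with an offset of 50 and 6 in the series matrix as deposited. The count 2-fold lower, 1, was 0 for genes detected on both arrays and with the offset of 50, and 2 with a detection p-value under 0.05 and with no filter on dim probes. Members with an interval above 0 numbered 7 with the mean of all detected probes and 3 after centring on all genes, against 2. They numbered 1 with RefSeq probes only, an alternative chosen after seeing the data, where 54 members were detected on both arrays. Gnaq was not among those 54, because its detected RefSeq probe was seen on the CeCl3 array only. The series matrix as deposited, in which the median of all genes was 0.18, moved the median of members detected on at least 1 array to 0.14 from -0.03, of RGS genes to 0.083, of alpha subunits to 0.26, of beta subunits to 0.068, of cyclases to 0.35 and of phosphodiesterases to 0.081. With that table quantile normalized, no median moved beyond the middle bead standard error of 0.16. Because the main input already appears normalized, this setting was likely to come close to it and is no independent check. The setting without normalization between arrays also started from that input. Bead intervals could not be computed from the series matrix, which holds no bead errors. With 1 array per group, differences near the gap between probes of a gene were not resolved, and signals near the detection limit gave bounds alone.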
